A study of Homo sapiens with 12 samples.

Results

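The genes described are CBX2, CBX6, CBX7 and CBX8, which encode chromodomain subunits of the Polycomb repressive complex PRC1, measured here in HEK293T, a readily transfected human line of embryonic kidney origin. The 4 genes were taken by symbol from the 41878 gene rows of the count table, where each has 1 row, and CBX6 had been picked because its level was lower with TRPML3 in fed cells. All 4 passed the filter on low counts that left 18030 genes for testing. The cells had been transfected with 1 µg of an empty control vector or of a plasmid for TRPML3, the endolysosomal cation channel encoded by MCOLN3, and were kept in 10% serum (fed) or without serum for 4 h (starved). This gave 4 groups, called vector fed, TRPML3 fed, vector starved and TRPML3 starved, each with 3 biological replicates of polyadenylated RNA. The transfection reagent was shared by all groups, and the vector cells carried a plasmid too, so no untransfected cells entered any comparison. The labels do not state whether the replicates came from separate transfections, and p-values therefore measure the spread between these libraries. In transfected populations, a lower level in each cell and a lower level in some of the cells cannot be told apart.

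Polycomb proteins keep developmental genes silent through a pair of complexes. The first, PRC2, methylates lysine 27 of histone H3, and the chromodomain of a CBX protein binds that mark and brings canonical PRC1, whose RING1 or RNF2 subunit ubiquitinates histone H2A. A canonical PRC1 holds a single CBX subunit, so the CBX genes are alternatives to one another. CBX7 is known for its role in pluripotent stem cells, CBX2 for compacting nucleosomes and for gonad development, CBX8 for its work in leukaemias and at the CDKN2A locus, and CBX6 is the least studied of the group.

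The chromodomain is encoded at the start of each gene, and the coding sequences of CBX6, CBX7 and CBX8 show how closely these genes are related and how far reads can be assigned to one of them. The coding bases 1 to 180 below were read from GENCODE 29 transcripts, 5′ to 3′. Capitals mark the 113 bases that are the same in all 3.
CBX6: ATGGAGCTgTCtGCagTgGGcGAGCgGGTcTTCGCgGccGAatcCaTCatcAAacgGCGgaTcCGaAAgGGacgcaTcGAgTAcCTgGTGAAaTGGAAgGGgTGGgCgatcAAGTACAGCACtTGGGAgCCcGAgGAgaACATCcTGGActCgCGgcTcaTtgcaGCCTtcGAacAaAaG
CBX7: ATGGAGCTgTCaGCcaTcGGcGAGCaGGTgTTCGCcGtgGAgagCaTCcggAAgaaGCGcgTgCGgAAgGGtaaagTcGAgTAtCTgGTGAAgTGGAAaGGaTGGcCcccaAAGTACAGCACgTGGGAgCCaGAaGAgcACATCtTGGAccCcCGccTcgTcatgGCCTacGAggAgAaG
CBX8: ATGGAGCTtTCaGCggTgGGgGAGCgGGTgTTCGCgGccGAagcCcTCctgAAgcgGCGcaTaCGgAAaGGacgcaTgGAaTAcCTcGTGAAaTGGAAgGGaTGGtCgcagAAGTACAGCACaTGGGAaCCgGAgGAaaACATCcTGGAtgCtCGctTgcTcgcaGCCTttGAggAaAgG
Over these bases CBX6 was 78.9% identical to CBX8 and 70.6% to CBX7, and CBX7 and CBX8 were 70.0% identical. Beyond the chromodomain the genes differ in length, with 412 codons in CBX6, 389 in CBX8 and 251 in CBX7. The longest stretch that CBX6 transcripts shared exactly was 16 bases with CBX8 and 15 bases with CBX7, and CBX7 and CBX8 shared 13. No stretch long enough to fill a usual sequencing read was therefore common to a pair of these genes.

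CBX6 lies on the minus strand of chromosome 22 (GRCh38, 38861450 to 38872314, ENSG00000183741), and CBX7 on the same strand of that chromosome (39120167 to 39152674, ENSG00000100307). CBX2 (79778132 to 79787983, plus strand, ENSG00000173894) and CBX8 (79792132 to 79801683, minus strand, ENSG00000141570) are neighbours on chromosome 17 that are 4149 bases apart. In GENCODE 29, CBX7 overlaps COX5BP7 on the same strand and AL031846.2 on the opposite strand, and CBX8 overlaps AC100791.2 on the opposite strand. The use of strand in the counting is not given in the sources used here, so counts of CBX7 and CBX8 may include reads from the opposite-strand partners. Strand would not separate COX5BP7 from CBX7, so its reads may be included too.

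The RefSeq promoter table (GRCh38.p14) held CBX6 and CBX7, and not CBX2 or CBX8. The pair is printed because these genes lie near each other on chromosome 22 and, as given below, had different levels across the groups. Each sequence is the 250 bases upstream of the annotated start on the minus strand, chr22:38872217-38872466 for CBX6 and chr22:39152681-39152930 for CBX7, and capitals mark CACGTG, the palindromic core of an E-box. Starts are those of RefSeq, and the CBX6 start lies inside the GENCODE 29 span given above, so part of its window is inside the gene as annotated there.
CBX6: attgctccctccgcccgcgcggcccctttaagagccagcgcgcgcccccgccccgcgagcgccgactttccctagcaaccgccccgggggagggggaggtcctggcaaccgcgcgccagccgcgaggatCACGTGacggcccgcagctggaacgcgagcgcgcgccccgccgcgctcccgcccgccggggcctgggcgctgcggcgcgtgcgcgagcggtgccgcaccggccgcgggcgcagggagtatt
CBX7: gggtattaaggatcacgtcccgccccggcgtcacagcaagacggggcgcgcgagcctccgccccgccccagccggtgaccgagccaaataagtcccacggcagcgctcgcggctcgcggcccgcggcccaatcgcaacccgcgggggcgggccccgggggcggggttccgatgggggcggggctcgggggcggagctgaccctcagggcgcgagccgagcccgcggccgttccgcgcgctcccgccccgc
Both are CpG-rich, with 79.2% GC and 45 CpG dinucleotides in CBX6 and 78.8% and 41 in CBX7, against medians of 58.0% and 11 over 34943 promoter windows of the same length. CBX6 held 1 CACGTG, at base -121 from the RefSeq start, and CBX7 held none. On either strand, 6.32% of all windows held that motif. GGGCGG, a GC box, was also read on either strand, so that it can appear above as CCGCCC. It was found at 4 places in CBX6 and 8 in CBX7, and 42.5% of windows held at least 1. Neither sequence held TGACGTCA, a cyclic AMP response element found in 1.63% of windows, or TATAAA, found in 10.8%. These matches describe letters only, since no binding was measured.

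Library totals ran from 33101540 to 43700547 counts, and 3 counts, taken as the detection floor, came to at most 0.0906 CPM (counts scaled to a common library total, with TMM factors). MCOLN3 was at 9.30 to 18.4 CPM in the 6 vector libraries and at 4926 to 58200 CPM in the 6 TRPML3 libraries, as labelled. Of the markers listed for HEK293T cells, KRT8 was at 65.2 to 144, VIM at 182 to 585 and NEFM at 91.9 to 176 CPM. PAX2 and LHX1, of the same list, were lower, at 0.838 to 5.32 and 1.92 to 14.6 CPM. Of 5 genes that mark other cell types, INS had no counts, PTPRC had at most 4 counts, and PECAM1, ALB and GFAP reached at most 0.494, 2.05 and 2.26 CPM. Mitochondrial transcripts took 4.83 to 5.7% of counts in the 4 libraries numbered replicate 3, 2.81 to 4.4% in replicate 1 and 1.05 to 2.52% in replicate 2.

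All 4 CBX genes were above the detection floor in every library. Counts ran from 576 to 3027 for CBX6, 560 to 1335 for CBX2, 401 to 1884 for CBX8 and 65 to 174 for CBX7. Levels were compared between genes as CPM per kilobase of exon. On that scale the median over the 12 libraries was 6.56 for CBX8, 6.39 for CBX6, 4.51 for CBX2 and 0.392 for CBX7. CBX7 was therefore the member with the fewest transcripts for its length in every group, and its highest library, at 0.642, was below the lowest library of each other member (1.87 for CBX6, 2.56 for CBX2 and 3.14 for CBX8). The ranges of CBX6, CBX8 and CBX2 overlapped, and the order of these genes was not the same in every library.

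CBX6 was the member that varied most. Its highest library stood 5.79-fold over its lowest, against 3.75-fold for CBX8, 3.27-fold for CBX7 and 2.15-fold for CBX2. The median of that ratio over the 8927 tested genes with a median of at least 10 CPM was 2.51. CBX7, with a median of 2.92 CPM, is not in that set, so its ratio has no matched background here. Since CBX6 was chosen for a difference between groups, its wide range is in part a restatement of that choice.

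CBX6 had 60.8, 52.4 and 86.8 CPM in the vector fed libraries (replicates 1, 2 and 3 throughout). In the TRPML3 fed libraries it had 16.1, 15.0 and 29.5 CPM. Every TRPML3 fed library was below every vector fed library, and this is the difference the gene was picked on. In vector starved libraries CBX6 had 45.5, 39.6 and 50.3 CPM. In TRPML3 starved libraries it had 56.3, 84.2 and 86.3 CPM. After starvation the order was turned around, with every TRPML3 library above every vector library.

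**Figure D1:**
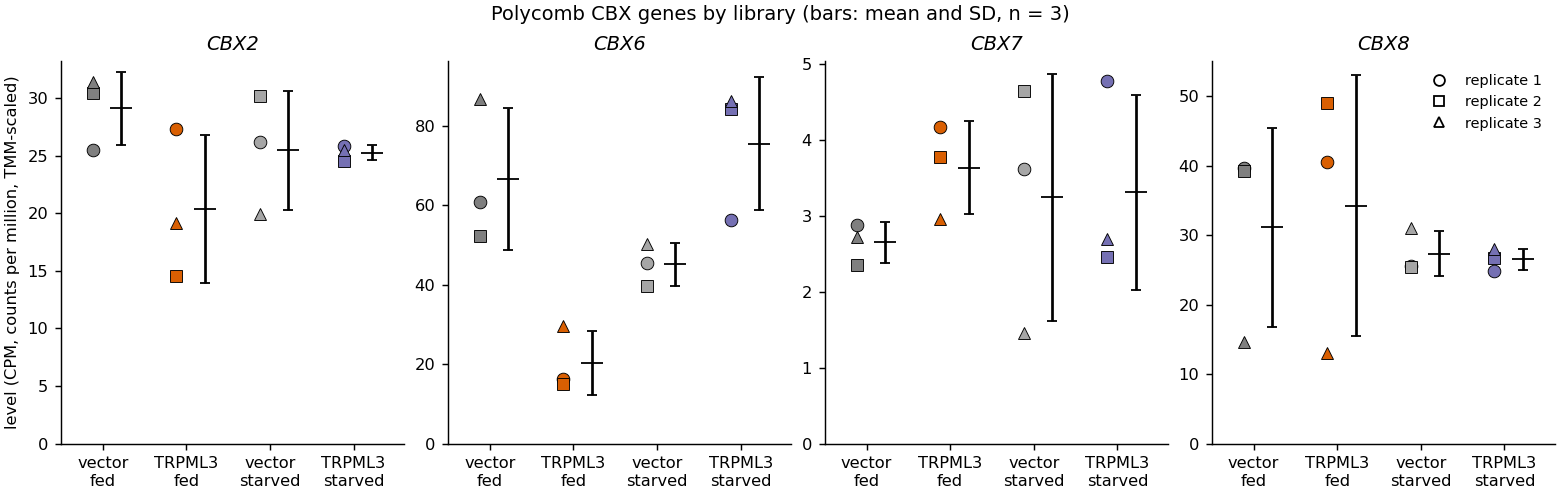
Level of CBX2, CBX6, CBX7 and CBX8 in each of the 12 libraries, in TMM-scaled CPM on a linear axis that starts at 0. Points are libraries with the replicate number as the shape, and bars give the mean and SD of 3 replicates. CBX6 is lowest in the TRPML3 fed libraries (15.0 to 29.5 CPM), and CBX8 is low in replicate 3 of both fed groups (14.6 and 13.1 CPM).

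The group means of CBX6 fell in the order TRPML3 starved (75.6 ± 16.8 CPM, SD, n = 3), vector fed (66.7 ± 17.9), vector starved (45.1 ± 5.36) and TRPML3 fed (20.2 ± 8.06). The libraries of the first pair overlapped, at 56.3 to 86.3 and 52.4 to 86.8 CPM, so those groups were not separated. The vector starved libraries lay below both without overlap, and the TRPML3 fed libraries lay below the vector starved ones. Among TRPML3 fed libraries, the highest CBX6 level (29.5 CPM, replicate 3) was in the library with the most MCOLN3, 39950 CPM against 6208 and 4926 CPM in replicates 1 and 2. In starved TRPML3 libraries, MCOLN3 was 41340, 58200 and 16890 CPM beside CBX6 levels of 56.3, 84.2 and 86.3 CPM, and the order of one did not follow the other.

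With TRPML3 in fed cells, CBX6 had a log2 fold change of -1.72 ± 0.32 (SE) against vector. This value restates the choice of the gene and is given without a test. Of the 18030 genes tested, 3.87% were lower without overlap in this comparison, 2.21% had an unadjusted p under 0.05 and 0.0111% (2 genes) had an adjusted p under 0.05 by edgeR's quasi-likelihood test. Nothing is read from these shares for the members, since this comparison was used to choose CBX6. CBX2 was at 25.5, 30.5 and 31.4 CPM in vector fed and 27.4, 14.6 and 19.2 CPM in TRPML3 fed libraries. Its groups overlapped, with a log2 fold change of -0.52 ± 0.27. CBX7 was at 2.88, 2.35 and 2.72 CPM in vector fed and 4.17, 3.77 and 2.97 CPM in TRPML3 fed libraries. It was the reverse of CBX6 in sign, with every TRPML3 library above every vector library and a log2 fold change of 0.46 ± 0.42, and 3.22% of all genes were higher without overlap. CBX8 was at 39.6, 39.2 and 14.6 CPM in vector fed and 40.5, 49.0 and 13.1 CPM in TRPML3 fed libraries. Its log2 fold change was 0.14 ± 0.47, and both groups held 1 low library, replicate 3 in each.

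The comparison of TRPML3 with vector in starved cells uses none of the libraries on which CBX6 was picked. Here CBX6 was higher with TRPML3, at 75.6 ± 16.8 against 45.1 ± 5.36 CPM. Its log2 fold change was 0.74 ± 0.31. The unadjusted p of edgeR's quasi-likelihood test was 0.0356, and the Benjamini-Hochberg adjusted p over 18030 genes was 1. An exact two-sided permutation test over the 6 libraries gave p = 0.1, the smallest that 3 against 3 allows. In the same comparison 2.2% of genes had an unadjusted p under 0.05, 3.02% were higher without overlap, and 1 gene, 0.00555%, had an adjusted p under 0.05. The libraries of CBX6 thus did not overlap between plasmids, and the difference did not pass the test across all genes.

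No other member showed a difference between plasmids in starved cells that passed the test. CBX2 had 26.2, 30.2 and 20.0 CPM with vector and 25.8, 24.5 and 25.5 CPM with TRPML3. The TRPML3 starved group was the tightest of all its groups, and the log2 fold change was -0.01 ± 0.27 (edgeR unadjusted p = 0.969). CBX8 had 25.6, 25.4 and 31.0 CPM with vector and 24.9, 26.7 and 27.9 CPM with TRPML3, a log2 fold change of -0.04 ± 0.47 (edgeR unadjusted p = 0.926). CBX7 had 3.62, 4.65 and 1.46 CPM with vector and 4.79, 2.45 and 2.69 CPM with TRPML3, a log2 fold change of 0.03 ± 0.42 (edgeR unadjusted p = 0.944). For all of these the groups overlapped and the adjusted p was 1. With standard errors of 0.27 to 0.47, this does not show that the levels were equal.

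**Figure D2:**
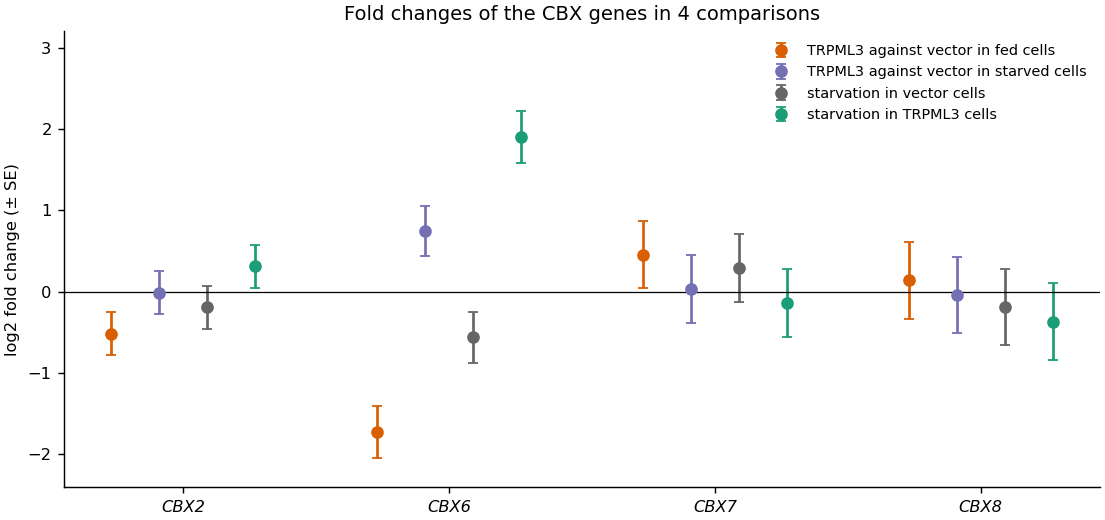
Log2 fold changes of the 4 CBX genes in 4 comparisons, as points with bars of 1 SE from the quasi-likelihood fit to 12 libraries. CBX6 is at -1.72 and 0.74 with TRPML3 in fed and starved cells and at -0.56 and 1.90 with starvation in vector and TRPML3 cells, and the other genes lie between -0.52 and 0.46.

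Starvation was compared with feeding within each plasmid. These comparisons share the fed libraries with the one CBX6 was picked on, so its values are given without a test. In vector cells, CBX6 was lower after starvation, at 45.1 ± 5.36 against 66.7 ± 17.9 CPM, with no overlap and a log2 fold change of -0.56 ± 0.31. In TRPML3 cells it was higher after starvation, at 75.6 ± 16.8 against 20.2 ± 8.06 CPM, with no overlap and a log2 fold change of 1.90 ± 0.32. Of all genes, 4.57% were lower without overlap in vector cells and 5.56% were higher without overlap in TRPML3 cells. For CBX6 the response with TRPML3 exceeded that with vector by 2.47 ± 0.44 on the log2 scale, which is also the difference between its TRPML3 effects.

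For CBX2, CBX7 and CBX8 no response to starvation passed the test. In vector cells the log2 fold changes were -0.19 ± 0.27 for CBX2 (edgeR unadjusted p = 0.482), 0.29 ± 0.42 for CBX7 (0.502) and -0.19 ± 0.47 for CBX8 (0.699). In TRPML3 cells they were 0.31 ± 0.27, -0.14 ± 0.42 and -0.37 ± 0.47, with adjusted p values by edgeR of 0.947, 0.995 and 0.968. The interaction was 0.50 ± 0.38 for CBX2, -0.43 ± 0.59 for CBX7 and -0.18 ± 0.66 for CBX8, each with an adjusted p of 1.0 by edgeR. The shares of all genes called at an adjusted p under 0.05 were 0.00555% for starvation in vector cells, 0.0% in TRPML3 cells and 0.0% for the interaction. At an unadjusted p under 0.05 they were 4.44%, 5.71% and 2.07%. By the DESeq2 Wald test, which called 0.167% of genes in the fed comparison, 0.549% on starvation with TRPML3 and 0.15% in the interaction, CBX2, CBX7 and CBX8 were not called either.

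CBX8 depended on the replicate number. In fed cells its replicates 1 and 2 had 39.2 to 49.0 CPM with either plasmid, and replicate 3 had 14.6 CPM with vector and 13.1 CPM with TRPML3. In starved cells all 6 libraries lay between 24.9 and 31.0 CPM, replicate 3 included. Replicate 3 was singled out after these values were seen, so the fits that left out 1 replicate number in all groups are given side by side with no test. Starvation gave log2 fold changes in vector cells of 0.07, 0.08 and -0.61 without replicates 1, 2 and 3. In TRPML3 cells it gave -0.18, -0.04 and -0.79. The replicate 3 libraries also had the highest mitochondrial shares, 4.83 to 5.7%, in starved cells as in fed ones, and the part of this in the CBX8 levels was not tested. The same pair of fed libraries was low for CBX1, an HP1 chromodomain gene outside Polycomb. It had 49.0 and 21.6 CPM there against 131 to 280 CPM in the other fed libraries. The other HP1 genes did not share this. CBX5 was higher there, at 771 and 558 against 361 to 410 CPM, and CBX3 had 334 and 353 against 336 to 354 CPM.

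With libraries left out, CBX6 kept its sign in both TRPML3 comparisons. This was fixed in advance, because no TRPML3 and vector libraries overlapped for CBX6 in either state. Over 15 fits that left out 1 library or 1 replicate number in all groups, its log2 fold change in fed cells lay between -2.1, without TRPML3 fed replicate 3, and -1.49, without vector fed replicate 3. In starved cells it lay between 0.56, without replicate 2 in all groups, and 0.92, without replicate 1. The unadjusted p in starved cells ran from 0.014 to 0.213 by edgeR. It was under 0.05 in 9 of 15 fits, and the adjusted p was under 0.05 in 0. Some of the 15 left out only 1 fed library and so kept every starved library, with 0.74 without either fed replicate 3. The 9 fits are therefore not 9 separate checks.

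**Figure D3:**
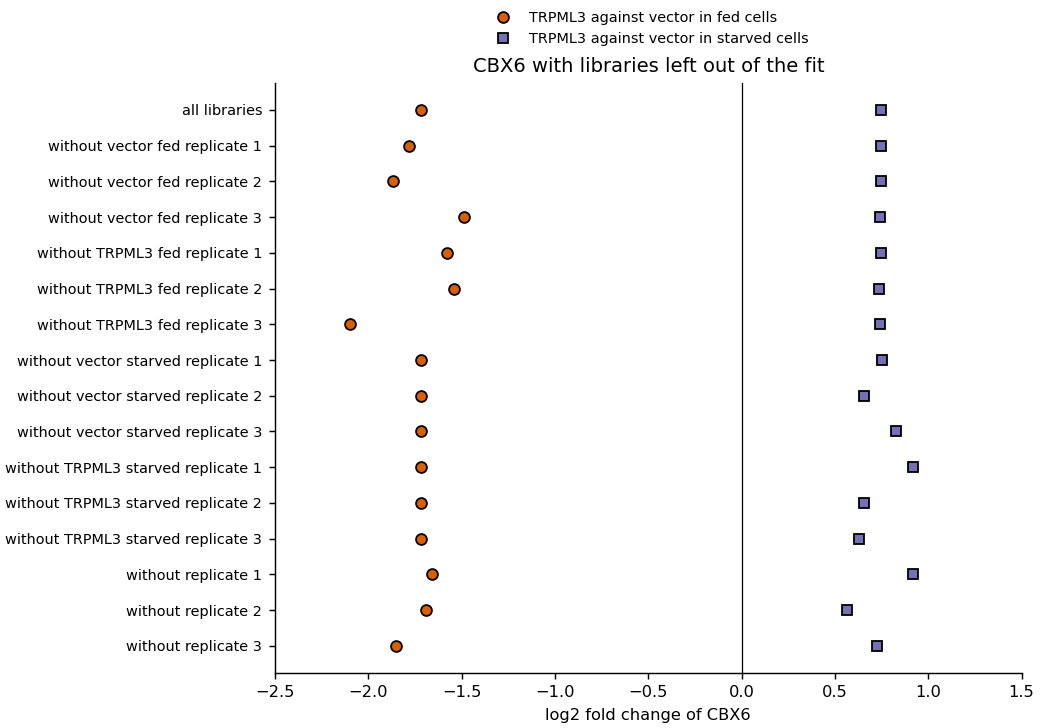
Log2 fold change of CBX6 between TRPML3 and vector with all libraries (top) and with 1 library, or 1 replicate number in all groups, left out (15 fits). Circles are fed cells, from -2.1 to -1.49, and squares starved cells, from 0.56 to 0.92, on either side of the line at 0. The sides were fixed in advance, since the CBX6 libraries did not overlap between plasmids.

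The make-up of the 4 transcripts was described as each gene's share of their summed CPM per kilobase, which does not depend on how libraries are scaled. CBX6 made up 34.5, 30.2 and 53.5% of the sum in vector fed libraries. In TRPML3 fed libraries it made up 11.7, 11.2 and 34.7%. The fed groups overlapped on this measure, since replicate 3 of the TRPML3 fed group, where CBX8 was also low, stood above vector fed replicates 1 and 2. In vector starved libraries the CBX6 share was 33.5, 29.1 and 35.9%. In TRPML3 starved libraries it was 38.6, 48.7 and 48.2%, above every vector starved library. In starved cells the share was 45.2 ± 5.7% with TRPML3 and 32.8 ± 3.5% with vector (SD, n = 3). That is a difference of 12.3 percentage points, with p = 0.1 in an exact two-sided permutation test, the smallest possible.

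CBX8 took 34.7 ± 15.1, 52.3 ± 20.8, 38.4 ± 3.83 and 30.9 ± 1.71% in vector fed, TRPML3 fed, vector starved and TRPML3 starved libraries. CBX2 took 24.2 ± 3.5, 25.1 ± 8.67, 26.2 ± 5.65 and 21.7 ± 2.86% in the same order. CBX7 took the smallest mean share in every group, from 1.68% in vector fed to 3.35% in TRPML3 fed libraries. By mean share CBX6 led in vector fed and TRPML3 starved cells, whereas CBX8 led in TRPML3 fed and vector starved cells, and in TRPML3 fed cells CBX2 was above CBX6 as well. TRPML3 fed replicate 3 had the reverse order of its group, with CBX6 at 34.7%, CBX2 at 31.9% and CBX8 at 29.6%. These orders of means are descriptions, since the shares of CBX6 and CBX8 overlapped in vector fed libraries and in vector starved libraries the highest CBX6 share equalled the lowest CBX8 share, both 35.9%. With these exon lengths, CBX8 was above CBX6 within each vector starved library, and CBX6 was above CBX8 within each TRPML3 starved library. The summed level over the 4 genes was 21.3 ± 0.93, 14.8 ± 3.66, 17.1 ± 0.281 and 20.7 ± 2.2 CPM per kilobase in these groups.

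**Figure D4:**
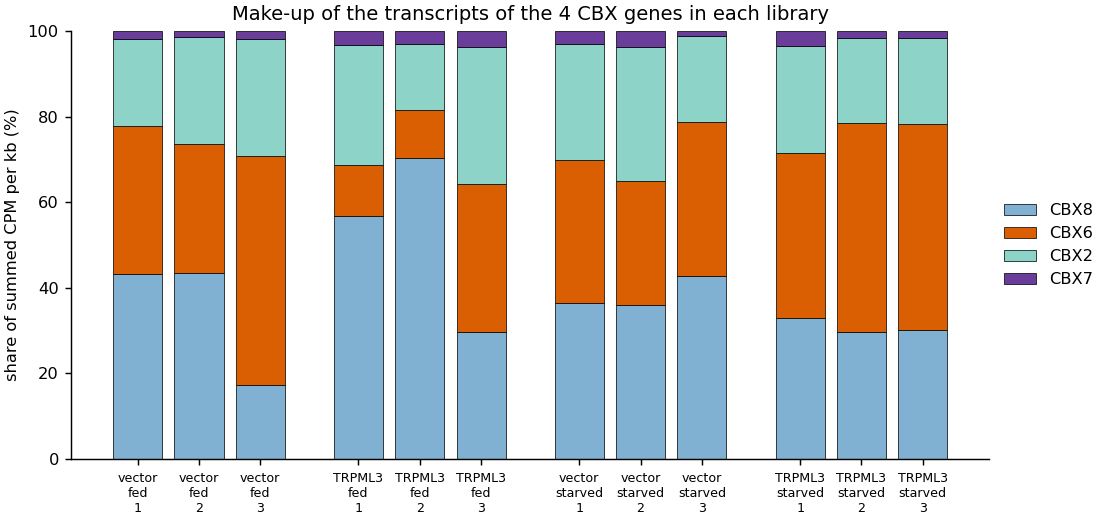
Share of CBX2, CBX6, CBX7 and CBX8 in their summed level (CPM per kilobase, %) for each library, stacked to 100%. The CBX6 segment is 11.2 to 34.7% in TRPML3 fed, 30.2 to 53.5% in vector fed, 29.1 to 35.9% in vector starved and 38.6 to 48.7% in TRPML3 starved libraries.

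The members did not follow one another across libraries. Over the 12 libraries, Pearson's r of log2 CPM was 0.52 between CBX6 and CBX2, -0.42 between CBX6 and CBX7 and -0.38 between CBX6 and CBX8. These values share libraries and groups and are descriptions only. CBX2 and CBX8, which are neighbours on chromosome 17, had r = -0.20.

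The tested genes whose levels were most like CBX6 were PYM1 (r = 0.90), which acts on exon junction complexes, SSH1 (0.89), a cofilin phosphatase, and SF3B3 (0.89), a subunit of the U2 spliceosomal particle. SF3B3 had 229, 338 and 460 CPM in vector fed and 119, 75.8 and 140 CPM in TRPML3 fed libraries. Like CBX6 it was lowest in the TRPML3 fed group, without overlap with another group. Unlike CBX6, its vector starved and vector fed libraries overlapped, and in starved cells its plasmid groups overlapped (231 to 379 and 337 to 485 CPM). For CBX8 the closest genes were EFNB2 (r = 0.98), an ephrin ligand, GLRX (0.98), a glutaredoxin, and C15orf62 (0.96). EFNB2 showed the same low fed replicate 3, at 21.9 and 20.9 CPM against 43.5 to 55.3 CPM in the other fed libraries. CBX2 was closest to FAM227A (0.92), OSCP1 (0.92) and AGAP9 (0.92), and CBX7 to RIBC2 (0.92), ARHGAP29 (0.90) and GGA2 (0.89). All r values are over 12 libraries, with the 3 highest of 18030 genes named. These genes were picked for likeness over the same libraries, so values they share with a member restate that choice.

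The genes beside CBX6 did not share its values. NPTXR, a neuronal pentraxin receptor gene 17468 bases away, had log2 fold changes with TRPML3 of 0.22 ± 0.38 in fed and 0.03 ± 0.38 in starved cells. APOBEC3B, 110033 bases away on the other side and coding for a cytidine deaminase, had 0.52 ± 0.42 and 0.04 ± 0.42. Neither passed the test, with adjusted p of 1.0 by edgeR in both comparisons.

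The partners that a CBX protein needs in canonical PRC1 were given by a list of 9 genes, all of which were tested, and 0 had an adjusted p under 0.05 by edgeR in any of the 5 comparisons. Their median log2 fold change with TRPML3 was -0.06 in fed and 0.10 in starved cells, beside -0.01 and -0.01 over all genes. At an unadjusted p under 0.05 there were 0 of 9 in either TRPML3 comparison. The catalytic subunits RING1 and RNF2 had log2 fold changes of -0.20 ± 0.20 and 0.21 ± 0.31 in fed cells and of 0.06 ± 0.20 and 0.10 ± 0.31 in starved cells. BMI1, which pairs with them, had 0.32 ± 0.68 and 0.27 ± 0.68. PHC3, a Polyhomeotic subunit that joins PRC1 complexes, was at 113 CPM in vector fed and 52.0 CPM in vector starved libraries without overlap, a log2 fold change of -1.12 ± 0.41 (edgeR unadjusted p = 0.0198, adjusted p = 1.0). In TRPML3 cells its groups overlapped, with -0.95 ± 0.41 (edgeR unadjusted p = 0.0416, adjusted p = 0.869). Its paralogue PHC2 had the opposite sign, at 33.7 CPM in TRPML3 starved and 17.7 CPM in TRPML3 fed libraries without overlap, a log2 fold change of 0.93 ± 0.40 (edgeR unadjusted p = 0.0415, adjusted p = 0.869), and 0.60 ± 0.40 with overlap in vector cells.

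Across all 7 lists of Polycomb subunits, HP1 genes and known Polycomb targets, 119 of 130 genes were tested and 0 had an adjusted p under 0.05 by edgeR in any comparison, with a smallest adjusted p of 0.812. With TRPML3 in fed cells, 4 of the 119 had an unadjusted p under 0.05 (1 higher and 3 lower), beside 2.21% of all genes, and the median log2 fold change was 0.03. In starved cells 2 of the 119 had one (1 higher and 1 lower), beside 2.2% of all genes, and the median was 0.01. Starvation gave 4 of 119 in vector and 13 of 119 in TRPML3 cells, and the interaction 3 of 119, at the same threshold, which 4.44, 5.71 and 2.07% of all genes passed. The 39 HOX genes, the best-known Polycomb targets, had 36 tested members with medians of 0.00 in fed and -0.02 in starved cells.

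FBRSL1, a subunit of variant PRC1 complexes, which carry no CBX protein, went the same ways as CBX6. It had 8.53, 10.3 and 12.4 CPM in vector fed and 1.85, 3.02 and 2.57 CPM in TRPML3 fed libraries. In starved cells it had 3.72, 2.00 and 8.68 CPM with vector and 12.3, 27.3 and 3.41 CPM with TRPML3. The fed groups did not overlap and the starved groups did. Its log2 fold changes were -2.07 ± 0.70 and 1.58 ± 0.69 (edgeR unadjusted p = 0.0135 and 0.0429, adjusted p = 1.0 in both). KDM2B, the variant PRC1 subunit that binds unmethylated CpG islands, was at 0.96 ± 0.39 in fed and -0.43 ± 0.39 in starved cells. GATA2, a transcription factor gene among the targets, was at -2.86 ± 1.13 in fed and 1.13 ± 1.06 in starved cells, with overlapping groups in both. PHF1, a PRC2 accessory subunit, was at -1.74 ± 0.64 in starved cells, and HOXD12, near the floor, was at -1.60 ± 0.71 in fed cells. None of these passed the test across all genes.

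**Figure D5:**
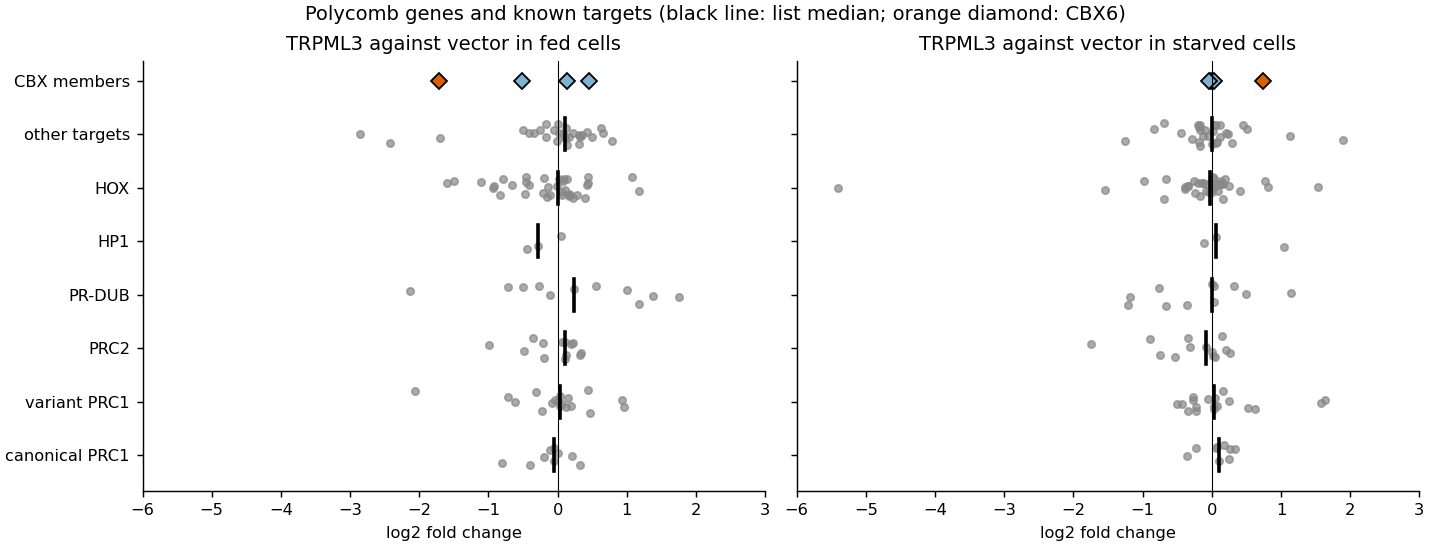
Log2 fold changes with TRPML3 in fed (left) and starved cells (right) for the 4 members (diamonds, CBX6 in orange) and for the tested genes of 7 lists (grey points), with the list medians as black lines. CBX6 is at -1.72 on the left and 0.74 on the right, and the list medians lie between -0.28 and 0.23 in fed and between -0.08 and 0.10 in starved cells.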

How the data were processed

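RNA-seq of 12 HEK293T libraries was analysed from a table of raw counts per gene that the authors deposited. The authors also deposited a normalized signal, which is each raw count over 1 size factor per library. The submitters' processing notes name FastQC, fastp, HISAT2, StringTie, DESeq2 and GRCh38, without roles or order. Neither the annotation release nor any use of strand is given in the sources used here, and the counts may be direct or estimated. Groups and replicate numbers came from the sample titles.

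Counts were fitted with edgeR 4.0.16 in R 4.3.3 (TMM, filterByExpr on group, robust quasi-likelihood, 1 coefficient per group, 8 residual degrees of freedom), with Benjamini-Hochberg adjustment at 0.05 over 18030 genes. CPM values are TMM-scaled. A standard error is the size of the log2 fold change over the square root of its F statistic. Values per kilobase use the summed exon bases of GENCODE 29 (GRCh38), which may differ from the release the authors used. Likeness was Pearson's r of log2 CPM with a prior count of 2. Library totals, from 33101540 to 43700547 counts, limit counting error, and duplicate molecules cannot be recognised in counts.

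The members and the gene lists were chosen with earlier results of these data known. No p is given for CBX6 in comparisons that use fed libraries, or for any member in the fed comparison, and a call counted for them there restates the choice of CBX6. Genes named besides the members were those called in a list, up to 3 per list with the smallest unadjusted p under 0.05 in each TRPML3 comparison, canonical PRC1 genes, the 3 genes most like each member, and nearest tested neighbours. CBX1, CBX3 and CBX5 were named after their values were seen. The CBX6 share was taken over the 4 members, which had been an alternative in the plan, and the form planned as the main one is not reported here, so the text does not show whether the share results hold in that form.

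Deviations of same-numbered vector and TRPML3 libraries from their group means correlated over genes with r of 0.11, 0.15 and 0.33 in fed cells, so the numbers were taken as pairing them. In starved cells r was 0.13, 0.095 and 0.32, and the numbers were not taken as pairing those by the same limit of 0.1. The main fit did not use the pairing in either state, and the replicate block was run as an alternative. Alternatives were other scalings, DESeq2 1.42.0, limma 3.58.1 trend on log2 of the authors' normalized signal + 1, other filters, no robust estimation, a replicate block, the 6 libraries compared, and left-out libraries.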

Additional observations from a re-analysis of the deposited data

Results flagged for a closer look

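The log2 fold change of CBX6 with TRPML3 had opposite signs in fed and starved cells. Every TRPML3 fed library was below every vector fed library, and every TRPML3 starved library was above every vector starved library. The difference between these log2 fold changes was 2.47. No p is given for this difference and it counts as not tested, because it contains the comparison on which CBX6 was picked. The starved part did not pass the test across all genes (edgeR unadjusted p = 0.0356, exact permutation p = 0.1, the smallest possible). Of the 18030 genes tested, 17 (0.0943%) were lower without overlap in fed and higher without overlap in starved cells. Nothing is read from this share for CBX6, since its fed part restates the choice.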

How the results depend on the processing

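The log2 fold change of CBX6 kept its direction in all 5 comparisons under every alternative run. With libraries left out this direction was fixed in advance, because the CBX6 groups compared did not overlap. The difference in starved cells had an adjusted p of 1 with and without the replicate block. The replicate block gave -1.75 in fed cells, 0.74 in starved cells and 2.49 for the interaction, and it changed no call of a member or list gene. By the DESeq2 Wald test the count of members called was 1 in the fed comparison, 1 in TRPML3 cells on starvation and 1 in the interaction, against 0 by edgeR. DESeq2 called 0.167, 0.549 and 0.15% of all genes in these comparisons. The member was CBX6 each time, and since all 3 comparisons hold the fed libraries on which it was picked, these counts restate that choice and support nothing. By DESeq2 2 of the 119 list genes in the fit (FBRSL1 and GATA2) were called in TRPML3 cells on starvation, beside 0.549% of all genes. By edgeR 0 were called, and the cause was not tested.

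Values near 0 changed sign. In starved cells CBX2 was 0.0031 by limma-trend and CBX7 was -0.0715 with library size only. With libraries left out, the TRPML3 effect in starved cells ran from -0.16 to 0.15 for CBX2, -0.34 to 0.55 for CBX7 and -0.11 to 0.0549 for CBX8. In fed cells it ran from -0.88 to -0.29 for CBX2 and from -0.20 to 0.53 for CBX8. Starvation in vector cells ran from -0.33 to 0.026 for CBX2, -0.14 to 0.68 for CBX7 and -0.61 to 0.0791 for CBX8, and in TRPML3 cells from -0.50 to 0.0527 for CBX7 and 1.63 to 2.28 for CBX6. The interaction ran from -0.80 to 0.20 for CBX7 and -0.57 to 0.16 for CBX8. The ranges of CBX2 in fed cells and of CBX6 did not cross 0. Nor did those of CBX7 in fed cells (0.35 to 0.61) and of CBX8 on starvation in TRPML3 cells (-0.79 to -0.0316). For CBX2 the same held on starvation in TRPML3 cells (0.11 to 0.58) and for the interaction (0.24 to 0.88). For CBX2, CBX7 and CBX8 none of these was called. CBX6 was not called with libraries left out, and by the DESeq2 Wald test it was called on starvation in TRPML3 cells, as given above.

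The difference in CBX6 share in starved cells was 12.3 percentage points, 12.8 on raw counts and 10.4 to 15.6 with 1 library left out. It was 12.5 with lengths of principal transcripts, an alternative chosen after seeing the data. Summing rows per symbol was not run, because each member has 1 row, and a fit to the 6 libraries compared has no interaction. CBX7, at 65 to 174 counts, had the widest counting error of the members.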
